A study of Mus musculus with 2 samples.

Results

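Alb-high barcodes of the early lesion library are described here, that is cell barcodes of that library in which Alb, the gene for the plasma protein albumin, made up at least 0.5% of the unique molecular identifiers (UMIs, each standing for a captured RNA molecule). Barcodes under 1000 UMIs, under 300 genes or with over 25% of UMIs from mitochondrially encoded genes had been set aside first. Of 2461 early barcodes that passed, 62 were Alb-high, or 2.52% (Clopper-Pearson 95% interval 1.94 to 3.22), out of 2673 kept barcodes in the series. They were compared across genes with the 2399 kept early barcodes below the Alb limit, and separately with the 105 of these that were cholangiocyte-like, defined by at least 3 UMIs summed over Krt19, Krt7, Epcam and Tspan8. Alb chose the barcodes, so its level is given as a description and supports nothing.

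The cells came from livers of a mouse model with a triple knockout of the Rb family (Rb1, Rbl1 and Rbl2), which develops hepatocellular carcinoma, the cancer of hepatocytes. All cells were sorted by flow cytometry for YFP, which the labels describe as a sign that Cre had recombined the floxed alleles. The early library was a pool of 3 untreated mice and the other library came from untreated macroscopic lesions. The labels used here give no promoter or cell type that drives Cre, no age, strain or sex, and no library of animals without the deletion was analysed here. Cells of the 3 pooled mice cannot be told apart, and each stage has 1 library. Every interval below therefore covers counting error only, no comparison has a replicate check, and no p-value is given.

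Hepatocytes are the parenchymal cells of the liver. They secrete most plasma proteins, detoxify ammonia through the urea cycle, oxidise drugs and make bile acids, with a division of labour along the lobule from the portal to the central vein. Cholangiocytes line the bile ducts, and both types arise from a common fetal progenitor. The RB family proteins hold E2F transcription factors in check and so restrain entry into S phase, and H19, an imprinted long non-coding RNA, is abundant in fetal liver and scarce in adult hepatocytes.

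The early library held 3221 barcodes and 12637053 UMIs, and 0 barcodes were shared with the macroscopic library. Kept early barcodes had a median of 3047 UMIs, and by a list of 11 macrophage genes 1957 of the 2399 barcodes below the Alb limit (81.6%) spent at least 1% of their UMIs on macrophage markers. The Alb-high barcodes were deeper, from 1285 to 51268 UMIs with a median of 16106, and held 1063105 UMIs together, so that 1 UMI of their sum corresponds to 0.941 CPM (a gene's UMIs scaled so that all genes of a sum give 1000000). Cholangiocyte-like barcodes had a median of 10977 UMIs and a sum of 1509213. Scrublet, a doublet caller, called 2 of 2461 kept barcodes, 0 of them Alb-high, and at that rate it cannot be taken to have worked.

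The targeted genes were counted first. Rb1 had 21 UMIs in the Alb-high sum, or 19.8 CPM (12.2 to 30.2), in 16 of 62 barcodes, against 27.9 CPM in the other early barcodes. Rbl1 had 0 UMIs, where the floor of 3 UMIs set for a sum of 0 is 2.82 CPM. The other 2399 barcodes had only 4 Rbl1 UMIs, so this 0 sets nothing apart. Rbl2 had 12 UMIs, or 11.3 CPM (5.83 to 19.7), against 26.9 CPM. These are tags from the 3′ end of the transcripts, which can lie outside a deleted part, so they do not check the deletion. The model gene Gm17233 lies over Rb1 on the same strand. Xist, the RNA that coats the inactive X chromosome of female cells, had 1729 UMIs in 61 of the 62 Alb-high barcodes, and 4 genes of the Y chromosome (Uty, Kdm5d, Ddx3y and Eif2s3y) had 0.

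The label of hepatocyte-like cells was checked against marker genes, and it held for most but not all of the Alb-high barcodes. For each barcode the marker list with the largest share of UMIs was taken, with Alb left out of the hepatocyte list. This rule was set after values had been seen. The hepatocyte list held Apoa1, Ttr, Cps1, Apoa2, Apob, Serpina1a, Fgb, Ahsg, Hpx and Trf, and the cholangiocyte list Krt19, Krt7, Epcam, Tspan8, Sox9, Cldn4, Spp1 and Krt23. Levels of these genes between the subsets therefore partly restate the sort and are given as a description. The hepatocyte list led in 46 barcodes, the cholangiocyte list in 13, and an endothelial, a macrophage and a monocyte or dendritic list in 1 each. The last 3 barcodes were shallow, with 1285 to 2066 UMIs, and 2 Apoa1 UMIs in all. The text therefore speaks of Alb-high barcodes for all 62, and of hepatocyte-led and cholangiocyte-led barcodes for its main subsets.

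The hepatocyte-led barcodes held most of the RNA, 909625 of the 1063105 UMIs, with a median of 18193 UMIs per barcode. Alb made up from 0.903% to 5.001% of their UMIs, with a median of 1.97%, and the 10 other hepatocyte markers together from 2.93% to 7.74%. In the 13 cholangiocyte-led barcodes Alb ranged from 0.511% to 1.52% with a median of 0.610%. All 23 barcodes with Alb at or above 2% were hepatocyte-led, against 3 of the 15 between 0.5% and 1%. Just inside the limit lay 3 cholangiocyte-led barcodes at 0.511%, 0.520% and 0.536%. Just outside lay a macrophage-led barcode at 0.4995% (5 of 1001 UMIs) and 2 cholangiocyte-led ones at 0.488% and 0.468%. The limit thus crosses the upper end of the cholangiocyte-like barcodes, whose Alb ran from 0% to 0.488% with a median of 0.225%.

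**Figure D1:**
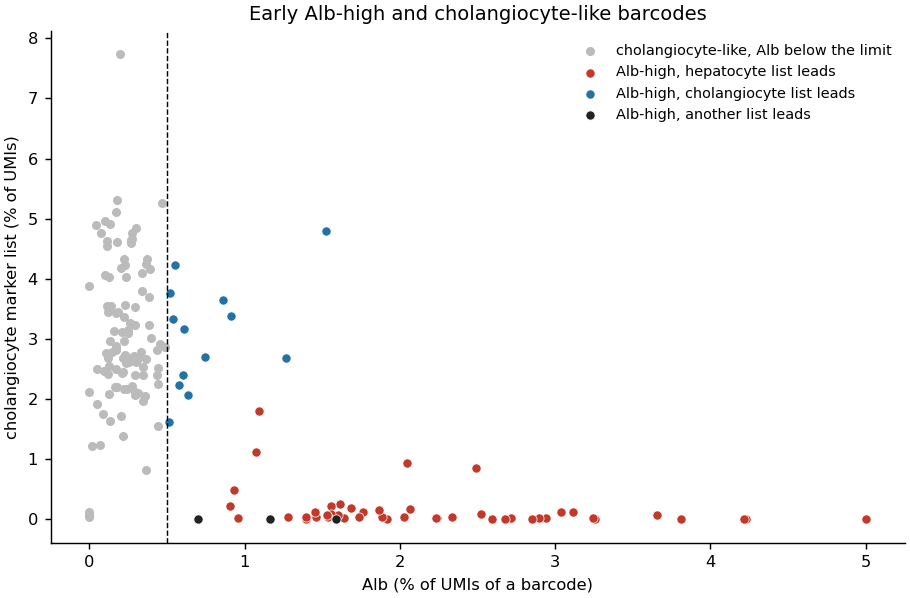
Alb against the summed cholangiocyte marker list, both as a percentage of the UMIs of a barcode, for the 62 early Alb-high barcodes coloured by leading marker list and for the 105 cholangiocyte-like barcodes (grey); the dashed line is the Alb limit of 0.5%. The 13 cholangiocyte-led barcodes continue the grey cloud to the right, and the hepatocyte-led ones run along the base up to 5.001% Alb.

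Of the other 4 genes proposed as markers, Apoa1, Cps1 and Ttr were part of the list that sorted the barcodes, and H19 was not. Apoa1 (chromosome 9, 46228580 to 46230466, plus strand, mm10) encodes the main protein of high-density lipoprotein. It ran from 1416 to 15150 CPM (median 6330) across the hepatocyte-led barcodes and had a UMI in 46 of 46. It had 0 UMIs in the 13 cholangiocyte-led barcodes and reached at most 113 CPM in a cholangiocyte-like barcode, a lack of overlap that the sort by this list favours. Cps1 (chromosome 1, 67123026 to 67231259, plus strand) encodes the enzyme that commits ammonia to the urea cycle. It ran from 67.6 to 4913 CPM (median 1009) in the hepatocyte-led barcodes and had 0 UMIs in the cholangiocyte-led ones. H19 was found in 44 of 46 hepatocyte-led barcodes, at a median of 6103 and up to 16470 CPM, and in 0 of 13 cholangiocyte-led ones.

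Ttr, which carries thyroid hormone and retinol-binding protein, behaved differently. It ran from 2837 to 18050 CPM (median 7205) in hepatocyte-led barcodes, but stood at a median of 2893 CPM in cholangiocyte-led and 2503 CPM in cholangiocyte-like ones, and the ranges overlapped. Relative to Alb itself, hepatocyte-led barcodes had 34.3 Ttr UMIs per 100 Alb UMIs, cholangiocyte-led ones 38.2 and cholangiocyte-like ones 109. For Apoa1 the same ratio was 28.7 in hepatocyte-led barcodes. At that ratio the 1124 Alb UMIs of the cholangiocyte-led barcodes would have come with 323 Apoa1 UMIs, 333 of H19 and 60.5 of Cps1. Of each, 0 were counted. The Alb limit itself separates cholangiocyte-led from cholangiocyte-like barcodes, and Apoa1, Cps1 and Ttr are in the sorting list. The ratios to Alb therefore partly restate the sort and are descriptions. Alb, Ttr, Ahsg and Trf were thus found in barcodes of both kinds, and Apoa1, Cps1, Serpinc1 and H19 in the hepatocyte-led ones with 0 UMIs in the cholangiocyte-led ones.

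Markers of other cell types were low or at 0 in the hepatocyte-led barcodes. All 8 T and NK cell, 6 B and plasma cell and 6 neutrophil markers had 0 UMIs. Macrophage markers made up at most 0.354% of the UMIs of a barcode and were at 0 in 24 of 46, with Timd4 at 0 throughout. The cholangiocyte list had a median of 0.0433% and a highest value of 1.80%. Its keratins Krt19 and Krt7 were at 0, as was Cldn4. Its other members were present, with 1187 UMIs of Spp1, 144 of Sox9, 87 of Tspan8, 47 of Krt23 and 5 of Epcam. The smaller cholangiocyte-led sum had 4063, 141, 62, 31 and 186 in that order. Whether RNA from neighbouring cells contributed to the remaining counts was not tested.

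**Figure D2:**
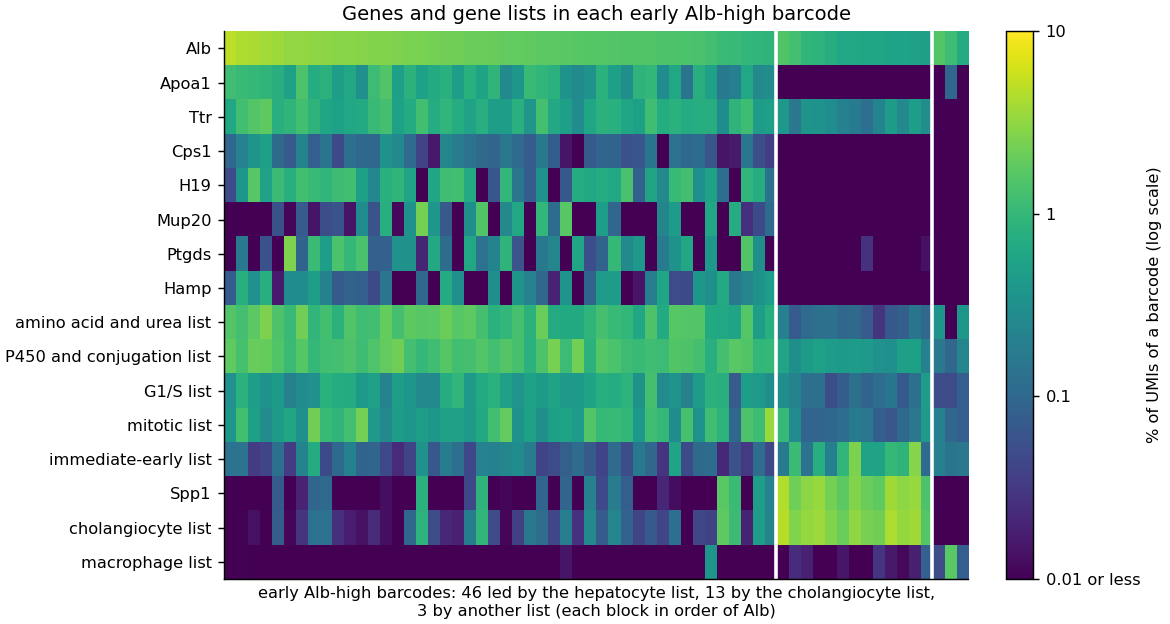
Share of UMIs of each early Alb-high barcode (columns) taken by selected genes and gene lists (rows), on a log colour scale from 0.01% or less to 10%, with 46 hepatocyte-led, 13 cholangiocyte-led and 3 other barcodes in blocks, each in order of Alb. Apoa1, Cps1 and H19 are dark throughout the cholangiocyte-led block, where Ttr stays visible and Spp1 is bright, and Mup20, Ptgds and Hamp vary widely among hepatocyte-led barcodes.

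Against the other early barcodes, the Alb-high barcodes carried more of the secretory and metabolic RNAs of hepatocytes. They carried very little of the macrophage RNA that fills the rest of the library. A gene was called when it differed at least 4-fold, among 10030 genes with at least 10 CPM in either sum, at least 20 UMIs in both together and more than 3 UMIs in either. Past that limit, 1158 were higher (11.5%) and 1187 lower (11.8%), with a median log2 ratio of 0.11 over all genes. A gene under 10 CPM in the other barcodes entered only through the Alb-high sum and could not be called lower. The reverse also held. In the hepatocyte-led barcodes alone 1168 of 9897 genes were higher (11.8%) and 1385 lower (14%), and 1111 genes were called higher both ways. Since Alb sorted these same barcodes, the counts describe the sort and no more.

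H19 led the list, with 6091 UMIs in the Alb-high barcodes (5729 CPM) and 19 in the other 2399 (1.76 CPM), a ratio of 3256 (2083 to 5411). The gene lies on mm10 chromosome 7, 142575529 to 142578143, minus strand. It is an RNA gene and makes no protein. Among the 25 highest genes were Mup20, a major urinary protein that male mice excrete as a pheromone, and Cyp2d9 and Cyp2a4, cytochromes P450 known for higher levels in males and in females respectively. Mup20 (chromosome 4, 62050234 to 62054158, minus strand) had 1828 CPM against 1.11, a ratio of 1644 (939 to 3188). Cyp2a4 had 621 CPM against 0.556, and Cyp2d9 193 CPM against 0.0926, the latter a single UMI (ratio 2082, 370 to 82620). Genes of both male- and female-associated expression were thus high in the same sum, which held Xist and no Y-linked UMI. Mup20, Cyp2a4, Cyp2d9, Ugt2b5, Hamp2, Gm4788 and Cfhr2 have near-identical relatives among which the authors' counting could split reads, so their levels are uncertain.

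Plasma protein genes were higher. Of 27 measured genes in the list of secreted plasma proteins without Alb, 26 were at least 4-fold higher and 0 lower, with a median log2 ratio of 6.05 (order-statistic interval 4.73 to 7.34) beside 0.11 for all genes. Hpx, which binds free haem, had 5736 CPM against 12.97, and ran from 1890 to 11700 CPM across hepatocyte-led barcodes. All 46 of these lay above the highest barcode of any other early kind below the Alb limit, at 1227 CPM. Hpx is in the hepatocyte list that sorted the barcodes, which favours this separation, and no such count was made over all genes. Trf, the iron carrier transferrin, was at 6365 CPM against 739, a ratio of 8.62 (8.34 to 8.90), and 1638 of the other barcodes had a Trf UMI.

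Apolipoproteins and clotting factors followed. Of 12 measured apolipoprotein genes 10 were higher, with a median log2 ratio of 6.86, and the 2 that were not include Apoe, which macrophages also make, at 10920 CPM against 15050. Apoa1 had 5564 CPM against 19.7, a ratio of 282 (246 to 325). Of 46 hepatocyte-led barcodes, 43 lay above the highest other barcode outside the cholangiocyte-like group, at 2527 CPM. Apoa1 too is in the sorting list, which favours this separation, and again no such count was made over all genes. Apoa2 had 4514 CPM, a ratio of 163 (145 to 184). In the coagulation list 17 of 18 genes were higher (median log2 6.34). Serpinc1, which encodes antithrombin, had 1458 CPM against 3.34, and ran from 410 to 3685 CPM across the 46 hepatocyte-led barcodes. Fgb, the fibrinogen beta chain, had 2661 CPM against 8.34, a ratio of 319 (259 to 398).

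Complement, acute-phase and iron genes separated hepatocyte from macrophage members of the same lists. In the complement list 15 of 19 genes were higher and 1, C6, was lower, at 3.76 against 344 CPM. C3, the central component, had 4423 CPM against 303 and a UMI in all 62 Alb-high barcodes. Of 15 acute-phase genes 13 were higher, and Saa3, the serum amyloid made outside hepatocytes, was lower at 15.1 against 219 CPM. Of 17 iron and haem genes 8 were higher and 4 lower. Hamp, which encodes the iron hormone hepcidin, had 2131 CPM against 5.37. Slc40a1, the iron exporter that hepcidin degrades, had 87.5 CPM against 1321, and Hmox1, the haem-degrading enzyme, 14.1 against 1398.

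The genes lowest in the Alb-high barcodes were those of macrophages and antigen presentation. Lyz2, a lysozyme of myeloid cells, had 27.3 CPM against 12060, a ratio of 442-fold lower (308 to 660). Adgre1, the F4/80 antigen, had 1 UMI against 5001. All 8 measured MHC class II genes were lower, with a median log2 ratio of -6.56, and H2-Aa stood at 13.2 CPM against 4273. The 12 class I genes were not called in either direction, with a median of -0.62.

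Promoters of the 25 highest genes were searched because these genes had the highest ratios in the Alb-high sum, though several of them varied widely among barcodes. RefSeq promoter windows (GRCm38.p6, 250 bases before to 50 after a start) were found for 22 of the 25 genes, 26 promoters in all. They were searched on both strands for the motif of HNF1, a hepatocyte transcription factor, in its common form of 10 bases with 1 free, and of HNF4 (CAAAGTCCA). The HNF1 letters were in 3 of 26 promoters (11.5%), in 23 of 1135 promoters of genes at least 4-fold higher (2.03%), in 34 of 10182 of all measured genes (0.334%) and in 131 of 32851 in the table (0.399%). The HNF4 letters were in 1 of 26 (3.85%), 21 of 1135 (1.85%), 0.54% of those of measured genes and 0.475% of all. Motifs of CEBP, E2F and NFY, further transcription factors, were searched as well. The CEBP letters were in 0 of 26, 0.0881% of the 1135, 0.314% of those of measured genes and 0.183% of all. For E2F these values were 0 of 26, 1.06%, 0.609% and 0.323%, and for NFY 8 of 26 (30.8%), 44.3%, 37.5% and 37.4%. The 120 bases before the start of each gene with an HNF1 or HNF4 match are printed 5′ to 3′ on the strand of the gene, with that match in capitals.
Cfhr2, chr1:139858700-139858819, minus strand: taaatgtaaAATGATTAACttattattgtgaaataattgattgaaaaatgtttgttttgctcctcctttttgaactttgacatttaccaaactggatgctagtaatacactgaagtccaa
Gm4788, chr1:139781240-139781359, minus strand: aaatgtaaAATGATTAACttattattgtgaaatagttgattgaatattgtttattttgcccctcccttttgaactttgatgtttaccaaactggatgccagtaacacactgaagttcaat
Igfbp1, chr11:7197667-7197786, plus strand: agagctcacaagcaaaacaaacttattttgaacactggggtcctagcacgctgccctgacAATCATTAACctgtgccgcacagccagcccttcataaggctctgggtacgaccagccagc
Cyp2c70, chr19:40187287-40187406, minus strand: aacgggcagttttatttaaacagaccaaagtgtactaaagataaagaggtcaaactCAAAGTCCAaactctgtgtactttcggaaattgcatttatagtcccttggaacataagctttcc
Cfhr2, a complement factor H-related gene, had 418 CPM in the Alb-high barcodes against 0.741, and Gm4788, a neighbouring gene model, 117 against 0.185. Shifted by 1 base, their windows match at 108 of 119 positions, so the 2 windows are near copies of each other. Igfbp1, a secreted binding protein of insulin-like growth factors, had 117 CPM against 0.185, and a UMI in 34 of 46 hepatocyte-led barcodes. Cyp2c70, a P450 of bile acid synthesis, had 164 CPM against 0.556. A match is a run of letters and not evidence of binding.

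Amino acid metabolism was prominent. Of 29 measured genes for the urea cycle and amino acid breakdown 26 were at least 4-fold higher, with a median log2 ratio of 3.36 (2.70 to 4.03). Cps1 had 1041 CPM against 13.3 (78.1-fold, 65.6 to 93.5), Ass1, which makes argininosuccinate, 1153 against a level 14.4-fold lower (13.2 to 15.8), and Arg1, which releases urea, 565 against 54.9. Bhmt, which remethylates homocysteine, had 3028 CPM against 35.7. The single lower gene was Glul, glutamine synthetase, at 28.2 CPM against 451. Summed over the list, hepatocyte-led barcodes spent 0.476% to 2.56% of UMIs on these genes (median 1.29%), and the highest cholangiocyte-led and cholangiocyte-like barcodes had 0.201% and 0.2997%. The remaining early barcodes overlapped with them, with a highest value of 2.88% and 7 of 2294 at or above 1%.

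Genes of the portal end of the lobule were higher, and those of the central vein end were mixed. Of 16 measured periportal genes 14 were higher (median log2 4.61) and Ctsc, a protease also of macrophages, was lower. Cyp2f2, a periportal P450, was found in 30 of 46 hepatocyte-led barcodes and was 114-fold higher (57.7 to 256). Of the pericentral genes Cyp2e1 had 1 UMI, and Cyp1a2, Axin2, Lgr5 and Tbx3 had 0 UMIs, where the floor of 3 UMIs is 2.82 CPM. The other 2399 barcodes had 4, 8, 0 and 2 UMIs of the last 4 genes, so these zeros set nothing apart. Of Cyp2e1 they had 105 UMIs, which stayed under the minimum of 10 CPM, so this gene is not in the counts that follow. Of 9 measured pericentral genes 5 were higher (Gstm3, Cyp2a5, Cyp2c37, Slco1b2 and Aldh1a1) and 3 lower (Oat, Glul and Slc1a2). The median of this list was 2.50 on the log2 scale, but its sign was opposite at a mitochondrial limit of 10% (-1.73), with equal weight per barcode (-0.84) and after thinning to 1000 UMIs (-0.68), so no direction is given for it.

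Most measured drug and bile acid enzymes were higher. Of 36 listed P450 and conjugation genes 26 were measured and 25 of these were higher (median log2 5.78). Some were measured only through the Alb-high sum, such as Cyp2d9 and Ugt2b5, with 1 and 2 UMIs in the other sum. Among genes under the minimum, Cyp2e1 had 1 UMI against 105 and Cyp2c50 0 against 15. Others went the opposite way, with Cyp4a10 at 12 against 2, Cyp2b10 at 11 against 0 and Gsta1 at 8 against 0. Cyp3a11, a major drug-oxidising P450, had 1092 CPM in the Alb-high sum and 0 UMIs in the cholangiocyte-like one, at least 549-fold higher. Gstm1 and Gsta3, glutathione transferases, had 2494 and 1336 CPM and ratios of 10.1 (9.53 to 10.6) and 13.2 (12.2 to 14.3). Of 13 bile acid genes 11 were higher, among them Slc10a1, the bile acid importer of the sinusoidal membrane, at 198 CPM against 0.556. Cyp7a1 and Cyp8b1, which start and branch bile acid synthesis, had 0 UMIs in all 62 barcodes, but also only 0 and 2 in the other 2399, so at this depth their absence sets nothing apart.

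Carbohydrate and lipid genes were less uniform. Of 11 gluconeogenic genes 10 were higher (median log2 2.94), with Fbp1 at 915 against 52.4 CPM. Glycolysis had 5 of 18 genes higher and 3 lower (Hk1, Hk2 and Pkm), with a median of 0.44. Against cholangiocyte-like barcodes it had 3 of 17 higher and 2 lower. Among its higher genes, Ldha, lactate dehydrogenase A, had 1202 CPM. Its ratio was 4.16 (3.90 to 4.45) over other barcodes and 5.35 (4.74 to 6.05) over cholangiocyte-like ones. Fatty acid oxidation had 13 of 22 genes higher (median 2.05), fatty acid synthesis 7 of 16 (1.78) and cholesterol synthesis 6 of 20 (1.51). None of 28 nuclear genes of oxidative phosphorylation and none of 12 mitochondrially encoded genes was called, with medians of 0.82 and 0.02.

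Among transcription factors and biliary genes, Sox9, Epcam and Spp1 belong to the list that sorted the barcodes, while Hnf4a and Clu do not. Hnf4a, a master regulator of hepatocytes, had 174 CPM against 7.97 in other barcodes, a ratio of 21.8 (16.8 to 28.5), and 5.97 (4.28 to 8.49) over cholangiocyte-like ones. Sox9, a factor of duct cells and progenitors, had a UMI in 42 of 46 hepatocyte-led barcodes at a median of 136 CPM, against a median of 979 CPM in cholangiocyte-led barcodes and 624 CPM in cholangiocyte-like ones. Epcam, a duct cell adhesion protein, had 5.50 CPM in the hepatocyte-led sum, 1255 in the cholangiocyte-led and 1344 in the cholangiocyte-like sum. Clu, which encodes clusterin, had 1930, 26230 and 19200 CPM in the same order.

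Spp1, the secreted protein osteopontin, ranged widely. It was at 0 in 15 of the 46 hepatocyte-led barcodes and had a median of 66.0 CPM, but a highest value of 17170 CPM, inside the range of the cholangiocyte-led barcodes, whose median was 27370 CPM. Of the hepatocyte-led barcodes 10 had at least 3 UMIs over the 4 genes that define cholangiocyte-like ones. Krt19 and Krt7 were at 0 in all 46, so these UMIs came from Tspan8 (87 over the 46) and Epcam (5). Against the cholangiocyte-like barcodes, the 13 cholangiocyte-led ones had 14 of 8945 measured genes at least 4-fold higher (0.157%) and 164 lower (1.83%). Krt19, Krt7, Epcam and Tspan8 helped to pick both groups, so likeness was favoured. In the cholangiocyte-led sum 1 UMI is 6.75 CPM, which limits what could be seen of genes at low levels. Between the hepatocyte-led and the cholangiocyte-led barcodes, both Alb-high, 491 of 6704 genes were higher in the former (7.32%) and 283 lower (4.22%), a contrast that the sort itself drew.

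Imprinted and oncofetal genes were mixed. Of 23 such genes among the features 10 were measured against the other barcodes, and 6 were at least 4-fold higher (H19, Spink1, Igf2, Igf2bp3, Cdkn1c and Gpc3). All 6 were under 10 CPM in the other sum, so they were measured only through the Alb-high sum and could not have been called lower. Against cholangiocyte-like barcodes 11 were measured. There 4 were higher (H19, Spink1, Igf2 and Igf2bp3) and 4 lower (Plagl1, Cd24a, Peg3 and Grb10). Igf2, the growth factor gene that neighbours H19, had 34 UMIs in 10 of 46 hepatocyte-led barcodes and 0 in the 2399 others, at least 115-fold higher but at 32.0 CPM, far below H19. Afp, the fetal albumin relative used as a tumour marker, had 3 UMIs, and Dlk1 and Meg3 had 0. Cdkn1c, an imprinted CDK inhibitor, had 63.0 CPM against 4.63.

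H19 varied strongly among the hepatocyte-led barcodes themselves. Its share ran from 0% to 1.65% of UMIs. In 9 barcodes it lay below 0.1%, although these had 9750 to 21699 UMIs and Alb from 1.07% to 5.001%. In the 37 others its median was 0.726%. The 9 low barcodes had a median Mup20 share of 0.116% (up to 2.38%), against 0.055% (up to 0.962%) in the others. Their median mitotic share was 0.512% against 0.866%. The 2 barcodes with 0 H19 UMIs and the 1 with a single UMI had 232, 130 and 296 Mup20 UMIs and 81, 200 and 174 Spp1 UMIs. These barcodes were picked for low H19 after values were seen, and whether they come from 1 of the 3 mice cannot be told.

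Mup20, Ptgds and Hamp varied as much. Mup20 was at 0 in 6 of 46 hepatocyte-led barcodes, had a median of 570 CPM and reached 23790 CPM. Ptgds, the lipocalin-type prostaglandin D synthase (chromosome 2, 25466709 to 25470046, minus strand), was found in 38 of 46, with a median of 1699 and a highest value of 26150 CPM, against 8.52 CPM in the other barcodes. Hamp was found in 40 of 46, with a median of 1767 and a highest value of 7876 CPM. Apoa1, Ttr, Hpx and Serpinc1 had a UMI in all 46. Of these, Apoa1, Ttr and Hpx are in the list that sorted the barcodes, which favours this, and finding a UMI does not measure spread.

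**Figure D3:**
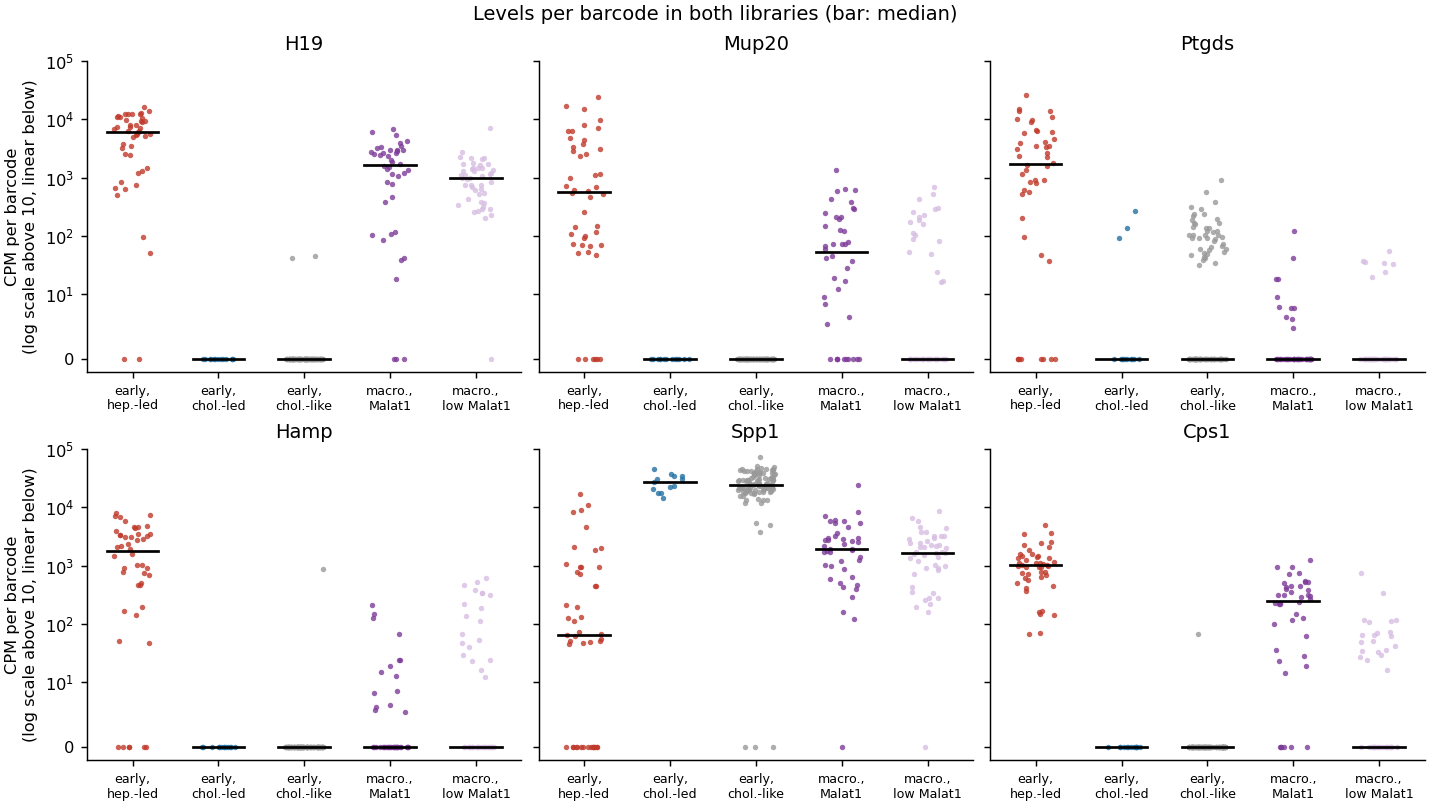
CPM of 6 genes in each barcode (points; scale logarithmic above 10 CPM, linear below) with the group median (bar), for early hepatocyte-led (46), cholangiocyte-led (13) and cholangiocyte-like (105) barcodes and for macroscopic Alb-high barcodes with (42) and almost without (46) Malat1. H19 and Cps1 are high in the early hepatocyte-led barcodes with medians of 6103 and 1009 CPM, Ptgds and Hamp have medians of 0 in both macroscopic groups, and Spp1 is highest in the duct-like groups.

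Over the 62 Alb-high barcodes, the genes whose share of UMIs ranked most like that of Alb were Ass1 (Spearman rho 0.80), Apoa1 (0.76), Apoa2 (0.75), Slc10a1 (0.74) and Ahsg, which encodes fetuin-A (0.74). These values include the step between hepatocyte-led and cholangiocyte-led barcodes. Within the 46 hepatocyte-led barcodes Ass1 was again first (0.61), followed by Ndufv2, a subunit of respiratory complex I (0.55), and by Got2 and Glud1, mitochondrial enzymes of glutamate metabolism (0.53 and 0.52). Ass1 also ranked most like H19 there (0.62), with Pemt, which makes phosphatidylcholine, next (0.61), while H19 and Alb themselves had a rho of 0.23. These are descriptions over barcodes that share 1 library and differ in depth.

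Cell cycle genes were higher in the Alb-high barcodes. Of 59 mitotic (G2/M) genes 44 passed the 4-fold limit upwards against the other barcodes and 0 downwards, with a median log2 ratio of 2.62 (2.33 to 2.86), and of 57 measured G1/S genes, many of them E2F targets, 36 were higher (median 2.33, 1.99 to 2.60). Mki67, a marker of cycling cells, had 341 CPM against 32.9 (10.4-fold, 8.92 to 12.02). Rrm2, the ribonucleotide reductase subunit made in S phase, had 317 against 12.3 (25.7-fold, 21.0 to 31.7). Spc24, a kinetochore subunit, had 365 CPM against 12.97, and Birc5, which encodes survivin, 242 against 29.1. Mki67, Rrm2, Spc24 and Birc5 were above 10 CPM in both sums. Many members of both lists were under 10 CPM in the other sum and were measured only through the Alb-high sum. Such genes, for example Bub1, Ttk, E2f7 and Ccne1 with 23, 29, 18 and 22 UMIs in the other sum, could not have been called lower.

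The mitotic RNA sat in some of the barcodes. The mitotic list took at least 1% of UMIs in 16 of 46 hepatocyte-led barcodes (34.8%), 1 of 13 cholangiocyte-led, 9 of 105 cholangiocyte-like and 59 of the 2294 other barcodes (2.57%). After thinning each barcode to 1000 UMIs, with 0 barcodes left out, at least 5 mitotic UMIs were left in 30 of 46, 1 of 13, 11 of 105 and 126 of 2294. The mitotic share of hepatocyte-led barcodes ran from 0.0995% to 3.40% with a median of 0.538%. Mki67 was found in 35 of 46, with a median of 151 and a highest value of 2439 CPM. The hepatocyte-led sum held 2128 UMIs of H2afz, 877 of Stmn1, 692 of Hmgb2 and 473 of Tubb5, beside 360 of Mki67. With these genes in the list, its share is not a count of dividing cells.

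The 16 hepatocyte-led barcodes with a mitotic share of at least 1% had somewhat less of the metabolic RNAs than the other 30, within wide overlap. Their median Alb was 1.61% against 2.15%, and their amino acid and urea list 1.14% against 1.40%. Their median H19 was 0.679% against 0.552%, and their depth 21290 against 16560 UMIs. Over the 46 barcodes the mitotic share had a Spearman rho of -0.42 with the amino acid list, -0.43 with the P450 list, 0.17 with H19 and 0.46 with depth. The part of depth in these values was not tested.

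**Figure D4:**
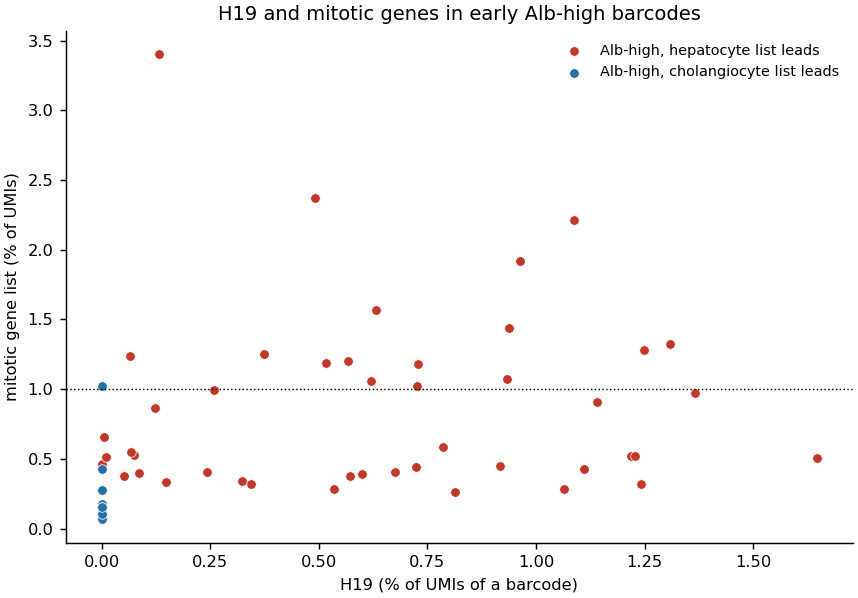
Share of UMIs from H19 (horizontal) against the summed mitotic gene list (vertical) for the 46 hepatocyte-led (red) and 13 cholangiocyte-led (blue) early Alb-high barcodes; the dotted line is a mitotic share of 1%. Barcodes above the line are spread over the range of H19 (rho 0.17, n = 46), and the cholangiocyte-led barcodes all lie at 0 H19.

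Regulators of the cell cycle differed in fewer cases. Of 27 measured genes of the RB, E2F, cyclin and CDK list 8 were higher and 1, Cdk6, lower, with a median log2 ratio of 0.54. E2f1 had 59.3 CPM against 26.03 (2.28-fold, 1.70 to 3.002). Cdkn1a, which encodes the CDK inhibitor p21, had 277 CPM, a ratio of 5.89 (5.08 to 6.81), and 41 of 46 hepatocyte-led barcodes had a UMI. Ccnd1 and Ccnd2, D-type cyclins that drive RB phosphorylation, had 1 and 0 UMIs in the hepatocyte-led sum, but 24 and 33 in the smaller cholangiocyte-led one. Of 19 measured p53 targets 2 were higher (Perp and Cdkn1a), or 10.5% beside 11.5% of all genes, and 1 was lower (Pmaip1), so the list was near the background.

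The comparison with cholangiocyte-like barcodes sets the Alb-high ones against barcodes with duct markers, whose median depth was 10977 UMIs beside 16106. In 3 of these 105 the cholangiocyte list took at most 0.1205% of UMIs and Spp1 was at 0. Of 10082 genes 505 were at least 4-fold higher (5.01%) and 873 lower (8.66%), with a median log2 ratio of -0.39, so the median gene was lower. Of the calls 36.7% were higher, and with median-of-ratios scaling 52.0% were (670 higher and 618 lower). In the hepatocyte-led barcodes alone 567 of 10015 genes were higher (5.66%) and 1296 lower (12.9%), more than with the 13 cholangiocyte-led barcodes included. Krt19, Krt7, Epcam and Tspan8 defined the other side and are not results.

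The highest ratios against cholangiocyte-like barcodes rested on 0 to 11 UMIs on the lower side. H19 had 5729 CPM against 2 UMIs, a ratio of 4323 (1196 to 35710). Apoc3, an inhibitor of lipoprotein lipase, had 2260 CPM against 2 UMIs (1706-fold, 472 to 14090). Apoa1 had 5564 CPM against 7.29 (763-fold, 426 to 1530), and Mup20 had 1828 CPM against 0 UMIs, at least 919-fold higher. Fabp1, a fatty acid carrier, had 2088 CPM against 3 UMIs, and Car3, a carbonic anhydrase, 885 CPM against 1. Periportal genes were higher for 13 of 16, amino acid genes for 20 of 29, G1/S genes for 12 of 57 and mitotic genes for 16 of 59 (median log2 1.60). Some of these too were measured only through the Alb-high sum, such as Bub1 and Ttk, with 5 and 7 UMIs in the cholangiocyte-like sum.

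Immediate-early genes were lower than in cholangiocyte-like barcodes. Of 17 measured genes 14 were at least 4-fold lower, with a median log2 ratio of -2.66 (-2.98 to -2.19), and 15 in the hepatocyte-led barcodes alone (-3.81). Fos had 61.6 CPM in the hepatocyte-led sum and a UMI in 8 of 46 barcodes, against 1680 CPM in the cholangiocyte-led and 2291 in the cholangiocyte-like sum. The list took at most 0.695% of UMIs in a hepatocyte-led barcode (median 0.0954%), and 43 of 105 cholangiocyte-like barcodes exceeded 1%. Immediate-early genes respond within minutes to stimuli that include tissue dissociation, whose part here was not tested. Against the other barcodes 0 of 18 were higher and 5 lower (median -1.25), with 12 lower in the hepatocyte-led barcodes (-2.45).

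Further genes were lower in the Alb-high barcodes than in cholangiocyte-like ones. Sprr1a, a cornified envelope protein, had 0 UMIs against 473, at least 111-fold lower, and Msmp 0 against 326, at least 76.5-fold lower. Cd24a, a surface protein of progenitors, had 0 UMIs in the hepatocyte-led and 73 in the cholangiocyte-led barcodes. H2-Aa was 18.97-fold lower (11.2 to 35.0) than in cholangiocyte-like barcodes, at 13.2 against 250 CPM, and all 5 measured MHC class II genes were lower. Of 20 cholesterol synthesis genes 1 was higher, which is the background share (5.01%), and the median was -0.10 beside -0.39 for all genes.

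**Figure D5:**
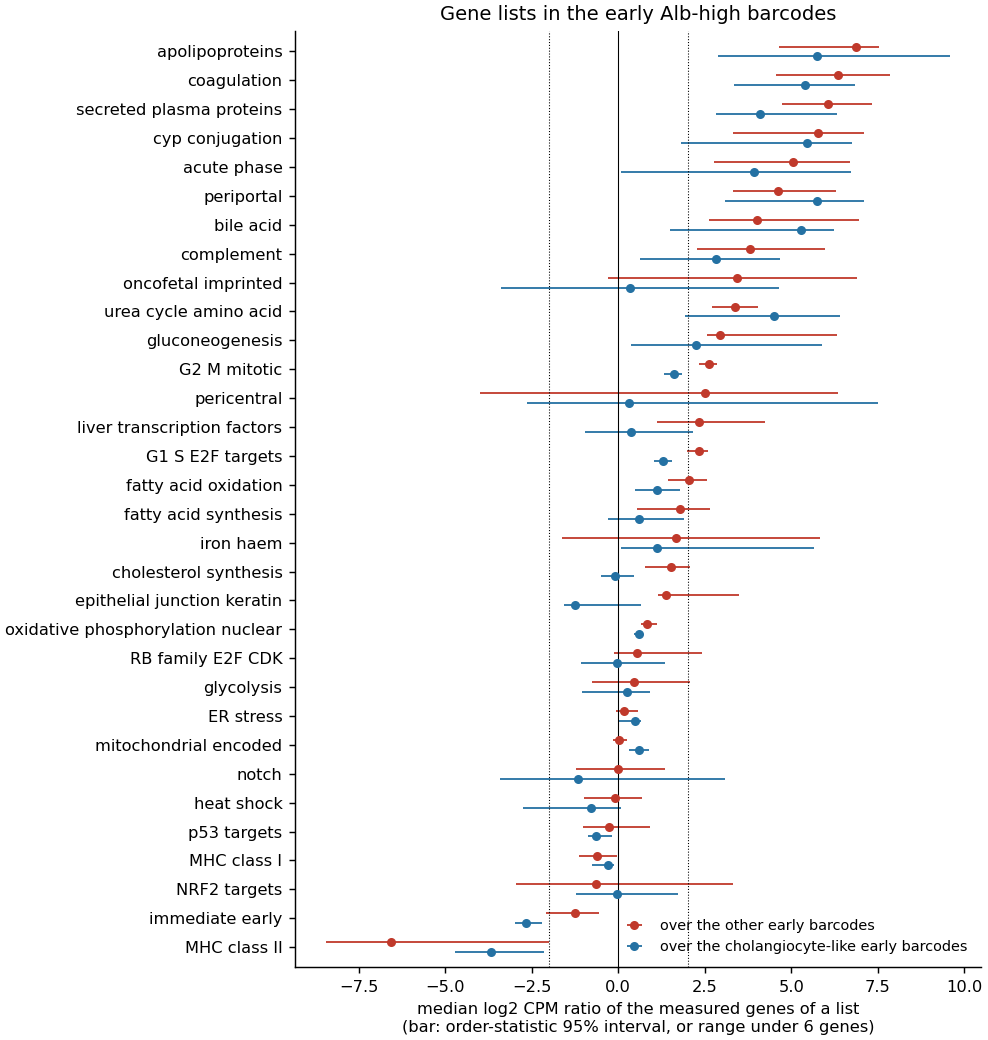
Median log2 CPM ratio of the measured genes of each of 32 gene lists in the 62 early Alb-high barcodes over the other early barcodes (red) and over the cholangiocyte-like ones (blue), with order-statistic 95% intervals (range for fewer than 6 genes); dotted lines mark 4-fold. Hepatocyte lists lie to the right in both comparisons, the mitotic and G1/S lists at 2.62 and 2.33 against other barcodes and 1.60 and 1.28 against cholangiocyte-like ones, and the immediate-early and MHC class II lists to the left.

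The same Alb rule found 88 of 212 kept barcodes in the macroscopic library. Of these, 42 had Malat1, a nuclear RNA, at or above 0.05% of UMIs, with a median of 113500 UMIs, and 46 had less, with a median of 21981. In the early library 1 of 62 was below that level. The 42 had medians of 8738 genes and 7.56% mitochondrial UMIs, and the 46 low in Malat1 had 3532 genes and 0.0811%. Early hepatocyte-led barcodes had a median of 8.06% mitochondrial UMIs. Whether the macroscopic barcodes low in Malat1 are intact cells was not tested. Values stand side by side only, since stage, library, depth, RNA quality and sex cannot be told apart. Xist had 0 UMIs in the macroscopic Alb-high barcodes, and the 4 Y-linked genes had 360 and 99 in the groups with and without Malat1. H19 had 6696 CPM in the early hepatocyte-led sum, and 2326 and 1133 CPM in the macroscopic groups. Mup20 had 2136, 169 and 81.8 CPM, and Ptgds 4290, 5.48 and 9.35. Hamp had 2491, 25.1 and 117 CPM, and Cps1 1217, 324 and 31.2.

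Apoa1 and Igf2 stood in the opposite order. Apoa1 had 6500 CPM in the early hepatocyte-led sum and 8751 and 16420 CPM in the macroscopic groups, and Igf2 37.4, 391 and 208 CPM. Mki67 had 396, 148 and 9.35 CPM, an order that the shares of the mitotic list did not follow. The mitotic list took at least 1% of UMIs in 16 of 46 early hepatocyte-led barcodes, and in 9 of 42 and 18 of 46 of the macroscopic groups.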

How the data were processed

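Single-cell RNA of sorted YFP-positive mouse liver cells was measured with 10x 3' v3 chemistry, per the labels' protocols. The authors deposited UMI counts, whole and not normalized, for 31053 features in each barcode. Cell Ranger 3.0.2, mm10 and Seurat 2.3.0 are named, per the submitters' processing notes, without saying what Seurat did. The annotation used for counting and the authors' filtering of barcodes are not given in the sources used here. Gene positions come from GENCODE M21 by Ensembl identifier and promoters from RefSeq.

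Barcodes under 1000 UMIs or under 300 genes (656 of the early library) or with over 25% mitochondrial UMIs (104 more) were left out, and 2461 early barcodes remained. Counts were summed over the barcodes of a group and expressed as CPM, with exact Poisson 95% intervals, exact conditional binomial intervals for ratios and Clopper-Pearson intervals for shares. A sum of 0 UMIs was set to a floor of 3 UMIs and its ratio is a lower bound. List medians include such genes at their bound. With 1 library per stage there was no test. Doublet calls (Scrublet in Scanpy 1.11.5) were not removed, and depth was checked by thinning to 1000 UMIs. The ratios were tested on simulated data. Calculations used Python 3.11.15, numpy 2.4.6, scipy 1.17.1 and pandas 2.3.3.

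The barcodes and the gene lists (32 of functions and 11 of cell markers) were chosen with earlier results of these data known. Named genes are the markers and targeted genes, the 25 highest ratios against other barcodes (at least 100 CPM and a UMI in at least 50% of Alb-high barcodes), the 15 lowest (at least 100 CPM in other barcodes), the 10 highest and lowest against cholangiocyte-like ones, the 12 most variable, up to 4 of the highest members of each list and any member against the direction of its list, and the 5 genes ranking most like Alb. The genes ranking like H19, those of the sex check and further list members were named after their values were seen. Alternatives covered the Alb limit, barcode filters, scaling, weighting, thinning, low-count filter and doublet and macrophage removal.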

Additional observations from a re-analysis of the deposited data

How the results depend on the processing

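The number of Alb-high barcodes depends on the limit by definition: 120 at 0.25% of UMIs and 23 at 2%. Thinned to 1000 UMIs, where fewer genes could be measured (7152 and 1431), 768 genes were higher and 416 lower than in other barcodes, and 100 higher and 85 lower than in cholangiocyte-like ones. At an Alb limit of 0.25%, which moves duct-like barcodes to the Alb-high side, 126 genes were lower than in cholangiocyte-like barcodes. The other 78 values of the counts stayed within 1.5 times those reported. Of 4543 gene values, 1003 moved and 4 changed sign: Ankrd1 (log2 0.996) and Msmp (0.25) against other barcodes at a limit of 0.25%, Dcn (0.72) when thinned and Vsig4 (0.25) against cholangiocyte-like barcodes with equal weight per barcode. The pericentral median changed sign at a mitochondrial limit of 10% (-1.73), with equal weight (-0.84) and when thinned (-0.68). The cause of these changes was not tested.

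The subsets by leading marker list, the transfer of cholangiocyte-led barcodes to the other side and the removal of cholangiocyte-like ones from it were chosen after seeing the data. The transfer gave 569 higher and 1280 lower genes against cholangiocyte-like barcodes. The removal gave 1620 higher genes (16.4%) and 1251 lower (12.7%) against the remaining barcodes. No paired analysis was possible because each stage has 1 library and the cells carry no replicate numbers.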
